A study of Homo sapiens with 22 samples.

Results

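Interferon-stimulated genes were followed across 22 ATAC-seq libraries of 2 multiple myeloma cell lines. The set holds 42 genes, of 19974 protein-coding genes in the annotation, and they lie at 35 separate loci. The genes were chosen by name as known interferon targets, with no measured value in the rule, and each was read as the gene body with 5 kb either side (hg38). ATAC-seq cuts accessible DNA with the Tn5 transposase, and a called peak marks a stretch where cuts pile up. For every gene and library, the bases that called peaks cover were counted in bp. Coverage within 1 kb of either gene end is given apart from the rest of the window, because the promoter sits at one of these ends.

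KMS11 and KMS34 are labelled as multiple myeloma lines of bone marrow, and both carry the t(4;14) translocation, which drives the histone methyltransferase gene NSD2. The 11 groups of 2 libraries are KMS11 at day 0, in DMSO at day 4 and day 10, and in NSD2LDD at day 4 and day 10, the same 5 groups of KMS34, and the libraries labelled KMS11 TKO at day 0. NSD2LDD is a compound that degrades the NSD2 protein, DMSO is its vehicle, and medium with compound was renewed through the treatment. The sources used here give neither the meaning of TKO, nor its number of clones, nor a concentration of NSD2LDD, and only the TKO libraries carry no t(4;14) genotype label. Each line stands for 1 tumour, so a difference between KMS11 and KMS34 is a difference between these lines. Libraries of a group are numbered as duplicates, and no label says that they came from separate cultures. P-values here therefore cover the spread between libraries, which may be technical.

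Interferons bind cell surface receptors and activate the kinases JAK1 and TYK2, which phosphorylate transcription factors such as STAT2. STAT2 and IRF9 are parts of a complex that binds the interferon-stimulated response element (ISRE) in promoters of antiviral genes, while the gamma-activated site (GAS) serves the response to interferon gamma. Plasma cells and other cells keep part of this program on at a low level without infection, and its products sense viral nucleic acid, block viral entry and copying, or tune the response itself.

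List length ran from 24979 to 52518 peaks per library (median 37598.5), and KMS34 lists were longer (median 43898) than KMS11 lists (median 35606.5). The shortest list was the day 0 KMS11 replicate 2 (24979 peaks), followed by the TKO libraries (26887 and 30699 peaks). The lists hold no read counts, so depth is unknown, and absence of a call and lack of reads cannot be told apart. Of 11 plasma cell markers, 8 had a peak at a gene end in all 22 libraries, among them SDC1, IRF4, PRDM1 and XBP1. Per library, 8 to 9 of these 11 were covered (3832 to 9512 bp summed), against 1 to 2 of 7 T and NK markers (256 to 1293 bp), 0 to 2 of 6 myeloid markers (0 to 278 bp), 0 to 1 of 4 erythroid markers (0 to 246 bp) and 1 to 2 of 6 stromal and endothelial markers (229 to 1173 bp). CD3D, CD3G, CD14 and LYZ had no peak in any library, and COL1A1 had one in all 22.

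The promoter sequences show which of these genes carry the ISRE near a start. RefSeq promoters (GRCh38.p14, 250 bases before to 50 after a start) were found for 31 of the 42 genes. The ISRE core, GAAA and GAAA set apart by any 2 bases, was searched on both strands. It was present in 22 of the 31 (71.0%) and in 4.16% of the 15813 genes with a promoter in the table. The GAS letters TTCNNNGAA, searched the same way, were present in 10 of the 31 (32.3%) and in 8.97% of all genes. Neither search allows for overlap of one motif with the other, and a match is a description of letters, not a bound site.

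The 170 bases before the start are printed 5′ to 3′ on the strand of the gene, with ISRE core matches in capitals; a match on the other strand reads TTTC, any 2 bases, TTTC. The first 3 genes had a peak within 1 kb of the start in all 22 libraries (over the IFIT1 promoter itself in 21), and they show a match in either orientation and a doubled, overlapping match.
ISG15: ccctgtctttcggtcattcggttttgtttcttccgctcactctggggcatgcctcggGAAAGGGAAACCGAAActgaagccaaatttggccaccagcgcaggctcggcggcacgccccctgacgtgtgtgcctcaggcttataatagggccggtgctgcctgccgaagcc
IFIT1: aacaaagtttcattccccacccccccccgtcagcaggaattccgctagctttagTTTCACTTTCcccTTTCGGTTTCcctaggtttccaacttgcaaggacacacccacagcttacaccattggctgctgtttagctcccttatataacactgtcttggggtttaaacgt
BST2: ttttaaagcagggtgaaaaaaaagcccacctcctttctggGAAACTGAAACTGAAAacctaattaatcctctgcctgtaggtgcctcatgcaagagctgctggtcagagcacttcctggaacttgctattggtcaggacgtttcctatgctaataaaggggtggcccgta
These stretches are chr1:1013327-1013496 (plus strand), chr10:89392453-89392622 (plus strand) and chr19:17405631-17405800 (minus strand). The next 2 belong to genes whose peak was missing from both TKO libraries, GBP1 near its start (chr1:89065209-89065378, minus strand) and RSAD2 at its start inside the gene (chr2:6877607-6877776, plus strand). The GBP1 peak was also missing from day 0 KMS11 replicate 2, the shortest list.
GBP1: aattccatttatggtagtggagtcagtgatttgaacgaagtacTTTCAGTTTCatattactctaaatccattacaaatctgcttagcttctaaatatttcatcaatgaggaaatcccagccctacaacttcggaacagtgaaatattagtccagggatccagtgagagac
RSAD2: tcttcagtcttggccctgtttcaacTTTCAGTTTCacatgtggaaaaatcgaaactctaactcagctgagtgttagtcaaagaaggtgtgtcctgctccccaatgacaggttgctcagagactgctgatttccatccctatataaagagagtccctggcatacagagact
The last 2 carry matches of the same letters and had no called peak within 1 kb of these starts in any library, IFI27 (chr14:94110566-94110735, plus strand) and OAS3 (chr12:112938304-112938473, plus strand).
IFI27: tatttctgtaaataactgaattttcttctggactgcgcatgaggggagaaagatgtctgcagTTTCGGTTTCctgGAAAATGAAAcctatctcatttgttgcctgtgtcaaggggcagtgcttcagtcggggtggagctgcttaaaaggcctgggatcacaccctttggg
OAS3: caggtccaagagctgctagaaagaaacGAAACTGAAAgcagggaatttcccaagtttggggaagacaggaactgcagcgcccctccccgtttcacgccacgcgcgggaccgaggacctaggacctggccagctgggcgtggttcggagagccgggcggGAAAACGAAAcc
IRF1 has no ISRE match in its promoter and is shown with its GAS match in capitals (chr5:132490774-132490943, minus strand); its start had a peak in all 22 libraries.
IRF1: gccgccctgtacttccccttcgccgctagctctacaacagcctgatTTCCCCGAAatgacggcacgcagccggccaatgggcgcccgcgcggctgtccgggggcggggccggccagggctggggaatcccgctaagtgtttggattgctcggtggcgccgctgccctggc
Matches were thus found both at starts with peaks and at starts without. Of the 26 starts with an ISRE match, 10 had a peak within 1 kb in all 22 libraries and 5 had none in any. Of the 15 starts of these genes with no match, 4 had a peak in all 22 (in IRF1, IRF9, PARP9 and STAT2), and each had one in at least 1 library. The starts are not independent, since IFI27 is counted more than once among the 5, and CMPK2 and RSAD2 starts share a peak. IFIT3 and MX1, also among the 5, have other starts with peaks. Peaks were not counted over all promoters of the annotation.

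Peaks at the ends of interferon-stimulated genes were either present in all libraries or present in some of them, and seldom absent. A gene-end peak was called in all 22 libraries at 17 of 42 genes (40.5%, against 48.7% of all genes). It was called in some libraries but not all at 22 of 42 (52.4%, against 20.0% of all genes). The remaining 3, IFI27, IFIT3 and OAS3, had none (7.1%, against 31.3%), and IFI27 had no peak anywhere in its window. GBP4 had a peak in 1 library, KMS34 in DMSO at day 4 replicate 2 (428 bp). Away from the gene ends, 6 of 42 genes were covered in all libraries (14.3%, against 26.7%). In PARP14, OASL and STAT2 the region called there in all libraries also touched a gene-end zone. That of TRIM22 lay over the start of the neighbouring gene TRIM5, and that of ISG15 lay 4572 bp beyond the gene. Only that of IFIT3 lay inside the gene and off its gene-end zones. The windows held 79 merged peak regions, 44 touching a gene-end zone and 35 elsewhere. Of these, 20 of the 44 and 3 of the 35 were called in all 22 libraries. The matching shares over all merged regions were not counted.

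**Figure D1:**
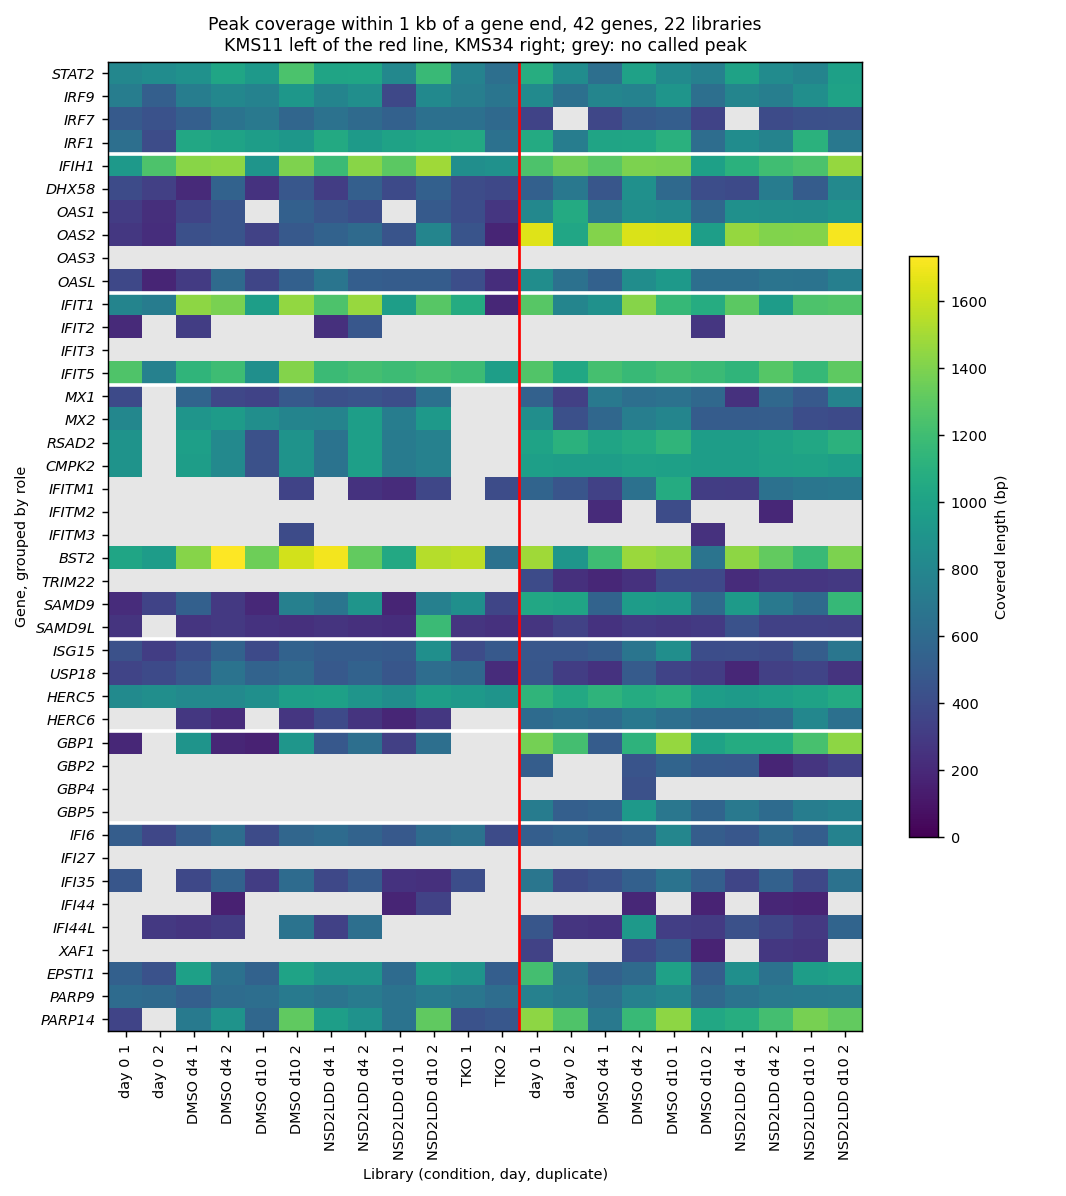
Covered length in bp (colour) within 1 kb of either gene end for the 42 genes (rows, grouped by role) in the 22 libraries (columns), with grey where no peak was called. ISG15, IFIT1 and 15 others are coloured throughout, GBP5 and TRIM22 are coloured only right of the red line (KMS34), and RSAD2, CMPK2, MX1, MX2 and GBP1 are grey in day 0 KMS11 replicate 2 and both TKO libraries.

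Signalling factors had peaks at their ends in nearly every library. STAT2, a transcription factor of the interferon response, had 633 to 1246 bp of gene-end coverage in the 22 libraries (median 862.5 bp). IRF9, the DNA-binding subunit of the complex, had 375 to 999 bp (median 779 bp), and IRF1, an early transcription factor of the response, 402 to 1112 bp (median 983.5 bp). IRF7, which drives interferon alpha genes, had 439 to 705 bp in the 12 KMS11 libraries. In KMS34 its coverage was 349 and 0 bp at day 0, 370, 490, 522 and 350 bp in DMSO, and 0, 400, 427 and 428 bp in NSD2LDD. Only those 2 of the 22 libraries lacked the IRF7 peak, and both were KMS34.

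Among sensors of viral RNA, IFIH1 (860 to 1486 bp at gene ends) and DHX58 (207 to 874 bp) were covered in all libraries. The oligoadenylate synthetases, which activate the RNA-degrading enzyme RNase L, differed from each other. OAS2 was covered in all 22 libraries (177 to 1713 bp), OAS1 in 20 and OASL, a relative without the enzyme activity, in all 22 (179 to 936 bp). OAS3 had no gene-end peak in any library.

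The IFIT genes encode proteins that bind foreign RNA and form a cluster on chromosome 10. IFIT1 (192 to 1469 bp) and IFIT5 (761 to 1414 bp) had gene-end peaks in all 22 libraries, and the low IFIT1 value was TKO replicate 2. IFIT3 had none at its ends, yet a merged region inside the gene was called in all 22 libraries (chr10:89332120-89334563, 375 to 2341 bp). It includes an annotated start, which had a peak within 1 kb in 19 libraries, 9 of them KMS11 and 10 KMS34. IFIT2 had a gene-end peak in 5 libraries, 4 of them KMS11 and none TKO.

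Inhibitors of viral entry and replication ranged from constant to mostly absent. BST2, which tethers budding virus to the cell, had 652 to 1736 bp in all libraries, and SAMD9, a translation repressor, 183 to 1165 bp. MX1, MX2, RSAD2 (viperin) and its neighbour CMPK2, a nucleotide kinase, had gene-end peaks in 19 libraries. The 3 libraries without them were the same for these 4 genes, day 0 KMS11 replicate 2 and both TKO libraries. IFITM1, a membrane protein that blocks virus fusion, had a gene-end peak in all 10 KMS34 libraries (311 to 1067 bp) and in 5 of 12 KMS11 libraries. IFITM3 had one in 2 libraries.

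ISG15 encodes a ubiquitin-like modifier, HERC5 its ligase and USP18 the protease that removes it and dampens receptor signalling. Gene-end coverage was 312 to 866 bp at ISG15, 818 to 1136 bp at HERC5 and 195 to 658 bp at USP18, with a peak in all 22 libraries at each. HERC6, a relative of HERC5, had a gene-end peak in 17 libraries. IFI6, a mitochondrial survival protein, had 368 to 797 bp in all 22. The guanylate-binding proteins GBP1, GBP2, GBP4 and GBP5, which attack intracellular pathogens, had gene-end peaks in 19, 8, 1 and 10 libraries.

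No tested interferon-stimulated gene passed the test under NSD2LDD. NSD2LDD was compared with DMSO within each line over both days, 4 libraries against 4, because the series asks how loss of NSD2 alters accessible chromatin. In KMS11, 0 of 40 tested genes passed in the whole window, 0 of 38 at gene ends, 0 of 24 away from them and 0 of 66 regions (limma with Benjamini-Hochberg adjustment over all features). The background in KMS11 was 0% of all genes in the whole window, 0% at gene ends, 0.0365% away from them and 0.0694% of all regions. In KMS34 the same 4 counts were 0, against 0%, 0.00754%, 0% and 0.986%. The difference between the lines in the NSD2LDD effect likewise had 0 in all 4 counts, against 0%, 0%, 0% and 0.00578%.

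Without adjustment, 0 of the 40 whole windows had p under 0.05 in KMS11, 1 in KMS34 and 2 in the difference; at gene ends 1 of 38 did in each. For regions the unadjusted counts were 1, 4 and 3 of 66, and the smallest adjusted p was 0.0633 (limma, Benjamini-Hochberg), in KMS34. Log2 differences of the whole window ran from -0.41 to 0.55 in KMS11 (median 0.03, all genes -0.01) and from -0.42 to 0.54 in KMS34 (median 0.01, all genes 0). Their standard errors were 0.11 to 0.38 (median 0.22), so small changes were not detectable here, and the counts do not show that coverage was equal.

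The individual libraries overlapped. ISG15 had 559, 827, 679 and 829 bp in its window in the 4 KMS11 DMSO libraries and 708, 726, 765 and 1184 bp in NSD2LDD. In KMS34 it had 672, 957, 1168 and 589 bp in DMSO and 652, 643, 731 and 955 bp in NSD2LDD. One NSD2LDD library, KMS11 at day 10 replicate 2, was above the rest at ISG15, and the other NSD2LDD values lay inside the DMSO range of their line. The ISG15 window also takes in part of a peak beyond the gene (chr1:1019112-1020342), called in all 22 libraries. That peak gave 151, 284, 290 and 284 bp of the KMS11 DMSO values. RSAD2 had 1291, 1278, 586 and 1427 bp in KMS11 DMSO and 1206, 1468, 983 and 1309 bp in NSD2LDD, and the KMS34 libraries had 1611, 1928, 1839 and 1476 bp and 1666, 1679, 1611 and 1832 bp. IFIT1 coverage was 1442, 1385, 973 and 1456 bp in KMS11 DMSO and 1254, 1469, 970 and 1285 bp in NSD2LDD. For both genes the lowest KMS11 value of each arm came from day 10 replicate 1.

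The arms stood apart at 0 of 40 whole windows in either line, where the share over all genes was 0.944% in KMS11 and 1.17% in KMS34. At gene ends the arms stood apart at 0 of 38 genes in KMS11 (all genes 1.02%) and at 1 of 38 in KMS34 (all genes 1.69%). That gene was SAMD9L, a relative of SAMD9 and a translation repressor, with 253, 294, 281 and 294 bp in DMSO and 436, 339, 336 and 331 bp in NSD2LDD. It did not pass the test, and in KMS11 its DMSO values (267, 291, 253 and 243 bp) and NSD2LDD values (262, 244, 230 and 1181 bp) overlapped.

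**Figure D2:**
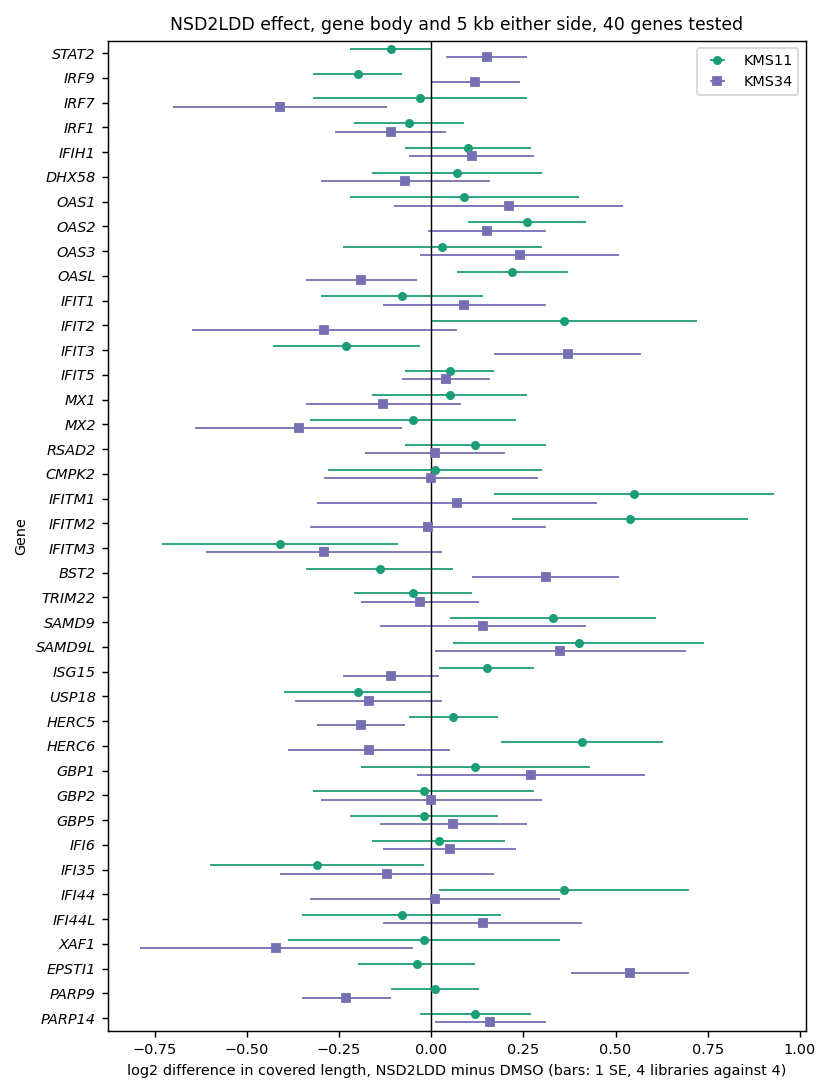
Log2 difference in covered length of the whole window, NSD2LDD minus DMSO, for the 40 genes tested in each line, with bars of 1 SE (4 libraries against 4). The points lie between -0.42 and 0.55 on both sides of 0, and none passed the test.

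The TKO libraries lacked a peak at RSAD2 that all other 20 libraries had. TKO was compared with the 2 day 0 KMS11 libraries, and 3 of 40 genes passed in the whole window, all lower in TKO (7.5%; 4.69% of all genes were called, 3.34% lower and 1.35% higher). At gene ends 0 of 38 passed (2.75% of all genes), with 7 at unadjusted p under 0.05 and a smallest adjusted p of 0.116 (limma, Benjamini-Hochberg). Away from gene ends 2 of 24 passed, both lower (8.33%; 4.09% of all genes were called, 3.07% lower). Of single regions 2 of 66 passed, both lower (3.03%; 4.07% of all regions were called, 3.1% lower). The median log2 difference of the whole window was -0.14 over the tested genes and -0.03 over all genes.

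RSAD2 (chr2:6865885-6898239) encodes viperin, which makes a chain-terminating nucleotide that stops viral RNA synthesis. Its window had 1342 and 312 bp covered in the day 0 KMS11 libraries and 0 bp in both TKO libraries. All 10 KMS34 libraries had 1476 to 1928 bp (median 1672.5 bp), and the DMSO and NSD2LDD libraries of KMS11 had 586 to 1468 bp. The log2 difference was -2.30 ± 0.27 (SE, limma adjusted p 8.12e-05). Its size depends on the 200 bp added before the logarithm, since TKO is at 0, and it was -4.00 with 50 bp and -0.89 with 1000 bp. With all lists shortened to the same length the difference was -2.31 and did not pass (adjusted p 0.0706, limma).

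The RSAD2 window holds 2 peaks. The first spans the start shared with CMPK2, which is transcribed the other way (chr2:6865486-6866632), and had 892 and 0 bp at day 0, 977, 814, 428 and 892 bp in DMSO and 659, 983, 719 and 762 bp in NSD2LDD. It was missing from both TKO libraries, but also from day 0 KMS11 replicate 2, the shortest list. The second lies over the start inside RSAD2 printed above (chr2:6877319-6878188). It had 450 and 312 bp at day 0, 314, 464, 158 and 535 bp in DMSO, 547, 485, 264 and 547 bp in NSD2LDD, and 0 bp in both TKO libraries. This second peak was present in day 0 KMS11 replicate 2 as well, so TKO stood apart from all 20 other libraries, and it passed (log2 difference -2.39 ± 0.29, limma adjusted p 0.0001). In the 10 KMS11 lists with the t(4;14) label it ranked 10932 to 29890 by strength, and in 8 of them within the length of the shortest list.

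PARP9, a ubiquitin ligase partner that enhances interferon signalling, was without a called peak inside the gene in TKO (chr3:122533759-122534435; whether it is exonic or intronic was not analysed here). Coverage was 356 and 299 bp at day 0, 439, 335, 320 and 527 bp in DMSO, 400, 351, 324 and 342 bp in NSD2LDD, and 0 bp in both TKO libraries. The log2 difference of this region was -2.23 ± 0.33 (limma adjusted p 0.000553). KMS34 mostly lacked the peak too, with 365 and 205 bp in the DMSO day 10 libraries and 0 bp in the other 8. The peak at the PARP9 start was called in all 22 libraries, with 683 and 618 bp in TKO, inside the 528 to 721 bp of the other KMS11 libraries. Away from the gene ends PARP9 passed (-1.53 ± 0.33, limma adjusted p 0.013), though not without day 0 KMS11 replicate 2 or TKO replicate 1, and RSAD2 passed with -1.66 ± 0.27 (adjusted p 0.00135). With all lists shortened to the same length neither passed, PARP9 at -1.55 and RSAD2 at -1.68 (limma adjusted p 0.111 and 0.0963). The single regions at RSAD2 and PARP9 passed with any of the 4 libraries left out, and were not refitted with shortened lists.

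MX1 and IFI44L passed on fewer libraries. MX1, a GTPase that traps viral capsids, had 783 and 205 bp in its window (chr21:41420558-41459214) at day 0 and 217 and 0 bp in TKO, so the groups overlapped. Its log2 difference was -1.27 ± 0.30 (limma adjusted p 0.0212), and the call was lost without day 0 KMS11 replicate 1 or TKO replicate 2. IFI44L, a regulator of the response, had 302 and 288 bp (chr1:78620448-78646145) at day 0 and 0 bp in both TKO libraries. IFI44L had no peak shared by the day 0 libraries, since the 302 bp lay in a region 2469 bp from its start and the 288 bp at the start. Its log2 difference was -1.45 ± 0.39 (limma adjusted p 0.0415), and the call was lost without day 0 KMS11 replicate 2 or either TKO library. With all lists shortened to the same length neither gene passed, MX1 at -0.92 and IFI44L at -0.80 (limma adjusted p 0.462 and 0.55).

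Not every interferon-stimulated gene was lower in TKO. ISG15 had 723 and 539 bp in its window at day 0 and 738 and 669 bp in TKO. At its gene ends alone ISG15 had 433 and 312 bp at day 0 and 406 and 485 bp in TKO. At HERC5 the gene ends had 833 and 855 bp at day 0 and 939 and 901 bp in TKO. STAT2 ends were lower in both TKO libraries, with 805 and 846 bp at day 0 and 767 and 633 bp in TKO, and did not pass. TKO had 27 and 26 of the 42 genes covered anywhere in the window (all genes 70.8% and 68.3%), and day 0 KMS11 32 and 26 (all genes 73.4% and 65.5%). The KMS11 DMSO libraries had 30 to 35 (all genes 72.6% to 74.6%), the NSD2LDD libraries 32 to 35 (73.1% to 74.4%) and KMS34 35 to 40 (75.2% to 80.2%). Thus TKO and day 0 KMS11 replicate 2, the 3 shortest lists, had the fewest covered genes, both of these 42 and of all genes.

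A second comparison of TKO with all 6 day 0 and DMSO KMS11 libraries was added after the data were seen, since 1 of the 2 day 0 lists is the shortest. It called 6 of 40 whole windows, 5 lower and 1 higher (background 5.81%, 4.99% lower and 0.824% higher). At gene ends it called 4 of 38, all lower (background 3.26%, 2.95% lower). Away from the ends it called 3 of 24, of which 2 were lower (background 5.4%, 4.51% lower), and it called 7 of 66 regions, all lower (background 5.42%, 4.55% lower). MX2, which blocks nuclear import of viral genomes, differed at its ends by -1.92 ± 0.33 (limma adjusted p 0.00276), RSAD2 by -1.83 ± 0.34 (0.0056), CMPK2 by -1.83 ± 0.35 (0.0057) and MX1 by -1.29 ± 0.27 (0.0115). MX2 gene ends had 806 and 0 bp at day 0, 903, 953, 861 and 782 bp in DMSO, 774, 970, 733 and 934 bp in NSD2LDD and 0 bp in both TKO libraries. GBP1 had 195 and 0 bp, 901, 186, 165 and 915 bp, 481, 637, 329 and 632 bp, and 0 bp in the same order. The other 2 lower whole windows were those of IFI44L and CMPK2, and IFITM2, a paralog of IFITM1, was higher in TKO (1.32 ± 0.37, limma adjusted p 0.0467). IFITM2 had 236 and 401 bp in TKO and 198 bp in 1 of the 6 other libraries; the 401 bp are the IFITM1 start peak, which lies in both windows.

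The peaks missing from TKO differ in strength. In the KMS11 t(4;14) lists that held them, the MX2 peak ranked 12904 to 25427 and was within the length of the shortest list in 8 of 9. The MX1 start peak ranked 16895 to 36126 (5 of 9) and the GBP1 peak 21859 to 33062 (1 of 9). The TKO lists were shorter than 9 of the 10 others of KMS11, and the part of list length in these differences was not tested beyond the fits with shortened lists.

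**Figure D3:**
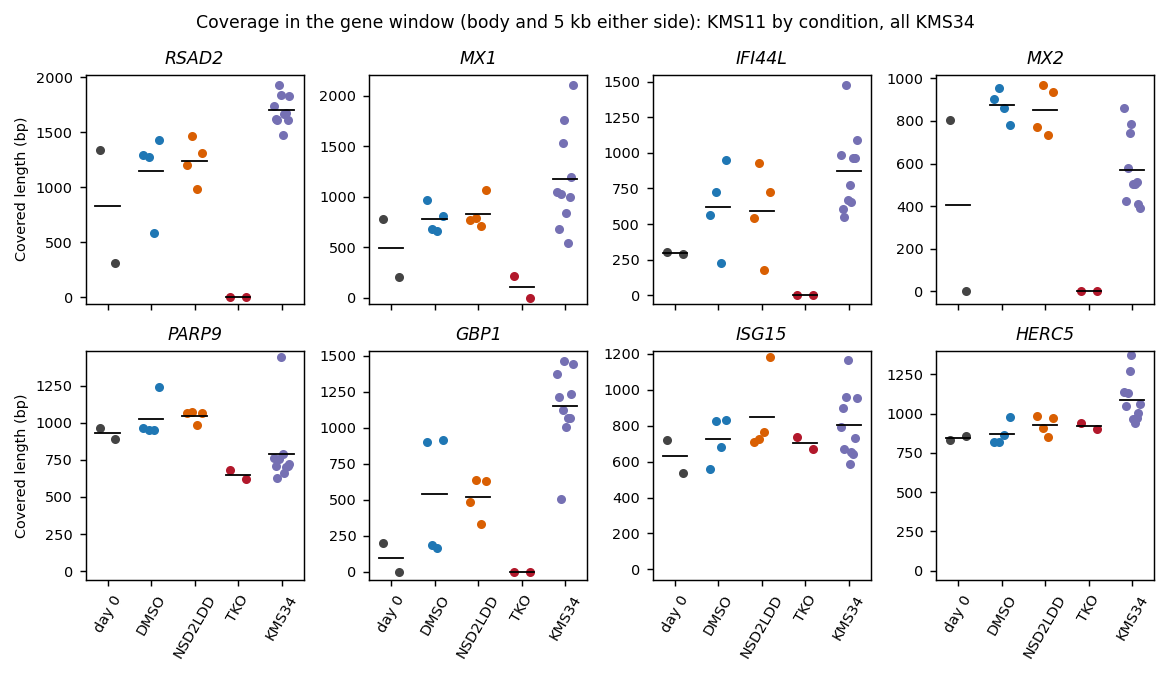
Covered length in the gene window in KMS11 libraries at day 0, in DMSO, in NSD2LDD and in TKO, and in all KMS34 libraries, for 8 genes; each point is a library and each line a mean. RSAD2, IFI44L, MX2 and GBP1 sit at 0 bp in both TKO libraries, while ISG15 and HERC5 overlap the other conditions.

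**Figure D4:**
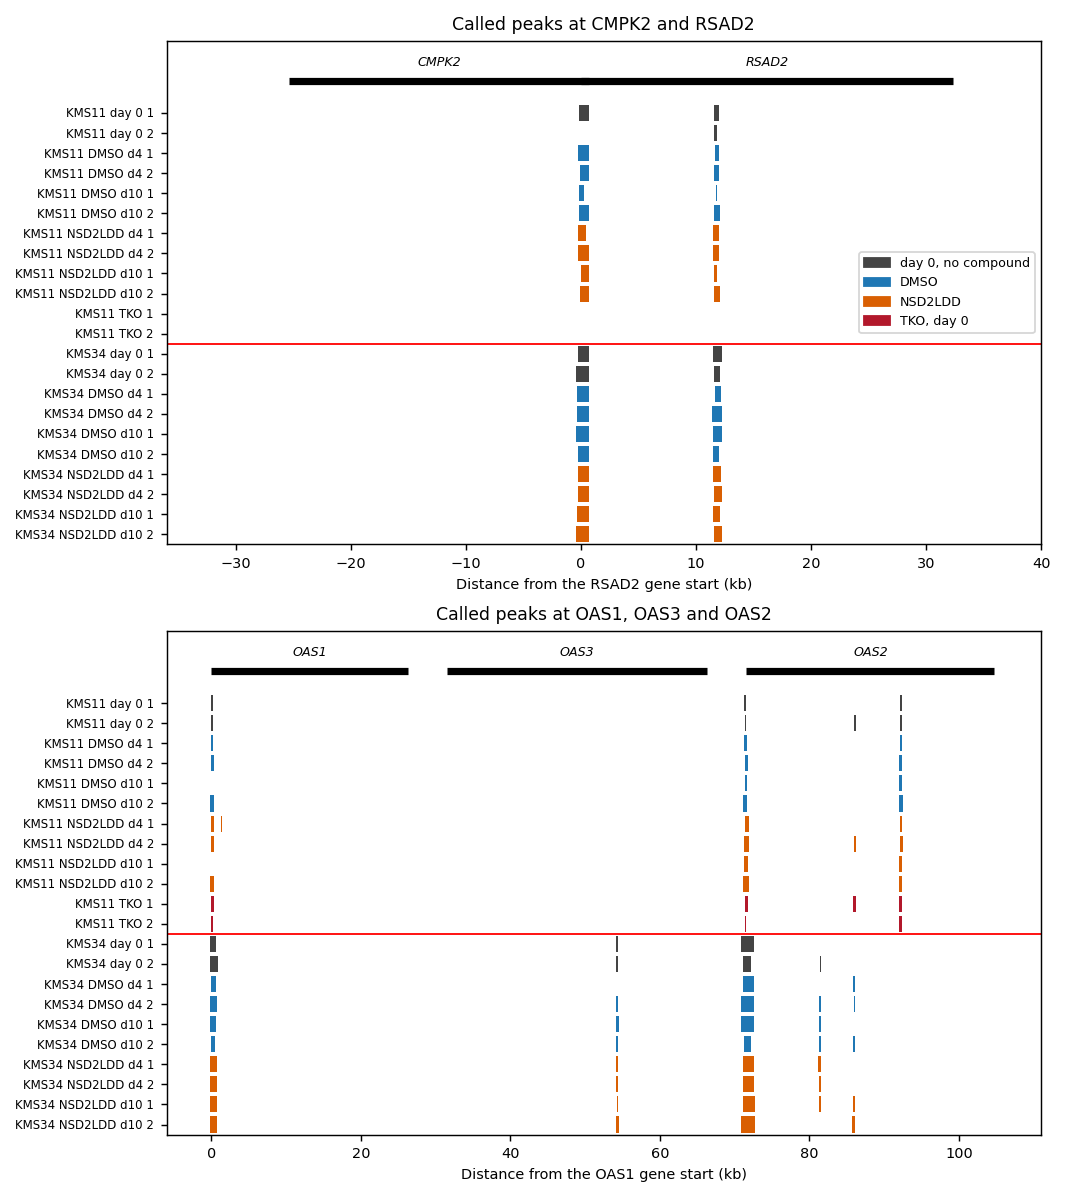
Called peaks at CMPK2 and RSAD2 (top) and at OAS1, OAS3 and OAS2 (bottom) in each of the 22 libraries, drawn against distance in kb from a gene start. The RSAD2 start inside the gene has a peak in every library except the 2 TKO libraries. The region at the OAS2 start has more covered length in KMS34 (976 to 1870 bp) than in KMS11 (177 to 789 bp).

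KMS34 and KMS11 differed at many genes of the whole annotation, interferon-stimulated genes among them. The lines were compared over day 0 and DMSO libraries, 6 against 6. In the whole window 18 of 40 genes passed, 14 higher and 4 lower in KMS34 (45%; 35.6% of all genes were called, 20.9% higher and 14.7% lower). At gene ends 14 of 38 passed, 11 higher and 3 lower (36.8%; background 21.1%, 11.7% higher and 9.43% lower). Away from gene ends 9 of 24 passed, 5 higher and 4 lower (37.5%; background 37.1%, 21.9% higher and 15.2% lower). Of regions 25 of 66 passed, 15 higher and 10 lower (37.9%; background 34.3%, 20% higher and 14.2% lower). The median log2 difference of the whole window was 0.24 over the tested genes and 0.03 over all genes.

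The split of higher and lower calls changed when scaling was left out and when lists were shortened, and the cause was not tested. Without scaling, 16 of 40 genes were higher and 1 lower in the whole window (all genes 25.5% higher and 5.64% lower). With all lists shortened to the same length, 9 of 37 were higher and 6 lower (all genes 15.7% and 14.5%). At gene ends 12 of 38 were higher and 0 lower without scaling (all genes 18.4% and 3.76%), and 5 of 34 higher and 4 lower with lists of the same length (8.2% and 8.78%). Leaving out the scaling moved the median over all genes from 0.03 to 0.25 in the whole window and from 0 to 0.19 at gene ends.

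GBP5, an activator of inflammasomes (chr1:89256189-89272860), had a peak at its high-coordinate end in KMS34 alone. Coverage was 0 bp in all 12 KMS11 libraries, and in KMS34 it was 726 and 526 bp at day 0, 553, 934, 691 and 561 bp in DMSO, and 700, 605, 733 and 770 bp in NSD2LDD. The difference at gene ends was 1.90 ± 0.13 on the log2 scale (limma adjusted p 2.30e-08), where the KMS11 value is set by the added 200 bp. TRIM22, a ubiquitin ligase that restricts retroviruses (chr11:5689790-5710863), had the same pattern with less coverage, 190 to 397 bp in KMS34 and 0 bp in all KMS11 libraries (1.13 ± 0.13, adjusted p 8.15e-06, limma). GBP5 and TRIM22 held the only 2 of the 79 regions called in all 10 KMS34 libraries and no KMS11 library. Such regions were not counted over all merged regions, so whether 2 of 79 differs from the general share was not tested. At gene ends, 5 of 42 genes (11.9%, against 3.8% of all genes) were covered in 2 or more KMS34 libraries and no KMS11 library, the others being IFITM2, XAF1 and GBP2; the reverse held for none (all genes 2.4%).

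The OAS locus on chromosome 12 was more covered in KMS34 at each of its genes. OAS2 ends had 368.0 ± 103.2 bp in KMS11 and 1390.0 ± 313.6 bp in KMS34 (mean ± SD, n = 6 each). The KMS11 libraries lay at 225 to 485 bp (median 383.5 bp) and the KMS34 libraries at 976 to 1652 bp (median 1525 bp), with no overlap, and the log2 difference was 1.29 ± 0.10 (limma adjusted p 5.55e-08). The merged region spans the OAS2 start (chr12:112977806-112979675) and was called in all 22 libraries, so the lines differed there in covered width. OAS1 ends had 313.7 ± 186.7 bp in KMS11 and 807.2 ± 161.2 bp in KMS34, also without overlap (0 to 535 and 577 to 1058 bp). At gene ends the lines did not overlap at 5 of 38 tested genes (13.2%, against 9.36% of all genes). OAS3 coverage away from its ends was 28.8 ± 60.1 bp against 514.2 ± 233.2 bp (log2 difference 1.41 ± 0.22, limma adjusted p 8.71e-05). Part of it is a peak inside OAS3 (chr12:112961040-112961510) called in 9 KMS34 libraries and no KMS11 library, and part is the edge of the OAS2 start peak, which reaches into the OAS3 window. A peak inside OAS2 went the other way (chr12:112998907-112999498), called in all 12 KMS11 libraries and in no KMS34 library (-2.19 ± 0.20, limma adjusted p 2.99e-07).

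HERC6 had a peak within 1 kb of its start in all 10 KMS34 libraries and in 7 of 12 KMS11 libraries. The day 0 and DMSO values were 0, 0, 284, 223, 0 and 272 bp in KMS11 and 578 to 694 bp (median 620.5 bp) in KMS34, and the log2 difference was 1.25 ± 0.16 (limma adjusted p 2.6e-05). GBP1 ends had 393.7 ± 404.7 bp in KMS11 and 1112.3 ± 341.2 bp in KMS34 (1.18 ± 0.25, adjusted p 0.00318 by limma). The GBP1 values of the lines overlapped, since 2 KMS11 DMSO libraries had 901 and 915 bp and 1 KMS34 DMSO library had 504 bp. Of the 14 genes called at gene ends, 9 passed with any library left out. Those that passed there and under all other settings were GBP5, OAS2, TRIM22 and HERC6.

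IFITM1, PARP14, OASL and GBP2 were also higher at gene ends in KMS34. IFITM1 differed by 1.43 ± 0.31 (limma adjusted p 0.00327), PARP14, a regulator of STAT signalling, by 0.73 ± 0.17 (0.00488), OASL by 0.50 ± 0.12 (0.00608) and GBP2 by 1.02 ± 0.28 (0.0162). IFITM1 turned to -0.18 with lists of the same length. STAT2 was lower at gene ends in KMS34 (-0.32 ± 0.09, limma adjusted p 0.0124), with 805 to 1246 bp in KMS11 and 636 to 1083 bp in KMS34, which overlap. In KMS34, USP18 and IRF7 were lower too.

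Away from the gene ends, STAT2 and IRF1 differed through regions beside the genes. STAT2 (chr12:56341597-56360107) had 946.8 ± 347.0 bp in KMS11 and 317.2 ± 75.8 bp in KMS34 (-1.29 ± 0.14, limma adjusted p 1.45e-06), and 516 to 1575 bp did not overlap 251 to 451 bp. The region behind it lies at the start of the neighbouring gene IL23A, a cytokine subunit (chr12:56338552-56339816). It was called in all 12 KMS11 libraries, TKO included (596 and 586 bp), and in no KMS34 library (-3.02 ± 0.21, adjusted p 2.15e-08 by limma). With the gene body alone STAT2 did not pass. Away from gene ends, the lines did not overlap at 12.5% of the 24 tested genes, against 13.7% of all genes.

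IRF1 (chr5:132481609-132490773) showed the opposite. A region beyond its end (chr5:132477442-132478578) was called in all 10 KMS34 libraries and in 1 KMS11 library, DMSO day 10 replicate 1 (259 bp). Coverage away from the gene ends was 43.2 ± 105.7 bp in KMS11 and 673.5 ± 210.6 bp in KMS34 (1.71 ± 0.24, limma adjusted p 3.08e-05). At its ends IRF1 had 829.0 ± 254.7 bp and 925.2 ± 198.2 bp in KMS11 and KMS34, and did not pass. PARP9 was lower in KMS34 away from its ends (379.3 ± 87.0 bp against 141.7 ± 259.9 bp, -1.19 ± 0.19, limma adjusted p 0.000118), through the same region that TKO lacked.

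A further peak inside DHX58, a regulator of RNA sensing, was called in all 12 KMS11 libraries and no KMS34 library (chr17:42107631-42108257, -2.40 ± 0.20, limma adjusted p 1.25e-07). One near the far end of BST2 was called in 11 KMS11 libraries and no KMS34 library (chr19:17403341-17403734, -2.07 ± 0.26). The BST2 peak did not pass among peaks of -log10 q of 5 or more. With the IL23A start and the peak inside OAS2, DHX58 makes 3 of 79 regions called in all KMS11 and no KMS34 libraries. The share of such regions among all merged regions was not counted.

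**Figure D5:**
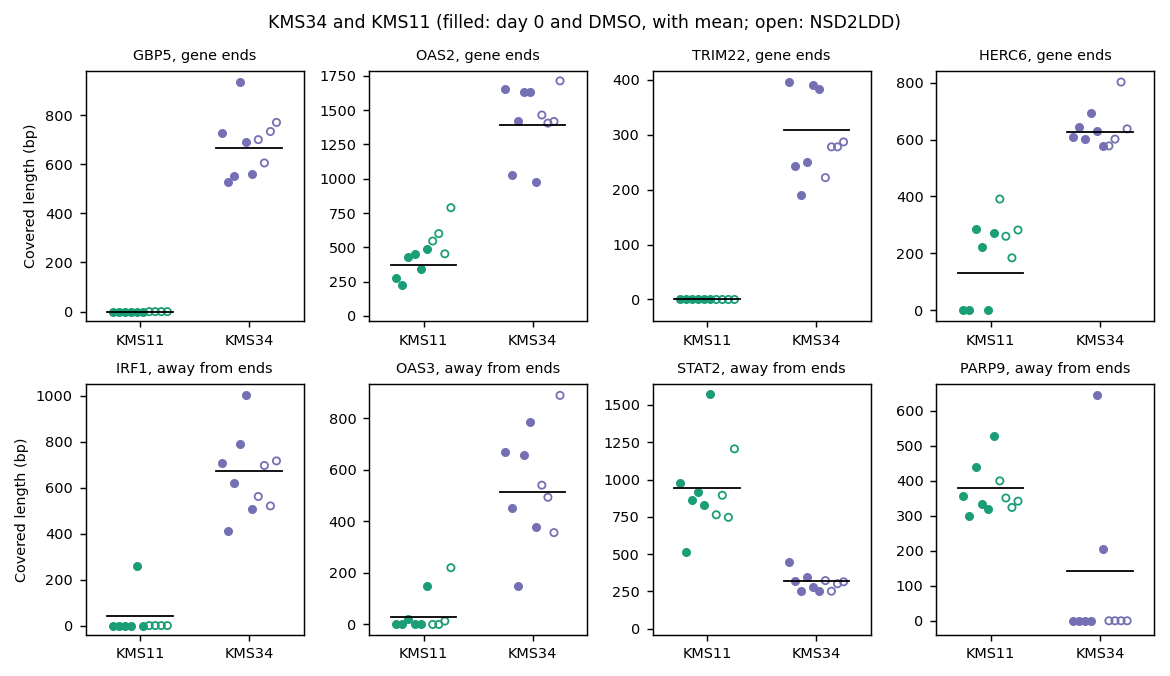
Covered length at gene ends (GBP5, OAS2, TRIM22, HERC6) and away from them (IRF1, OAS3, STAT2, PARP9) in KMS11 and KMS34, 1 point per library, filled for day 0 and DMSO with their mean and open for NSD2LDD. GBP5 and TRIM22 are at 0 bp throughout KMS11, and STAT2 and PARP9 are the panels in which KMS11 is higher.

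Other genes of the interferon pathway differed between the lines at about the share of all genes. A list of 50 ligands, receptors, kinases and factors, sensors and negative regulators had 47 genes tested in the whole window. NSD2LDD called 0 of 47 in either line and in the difference. In TKO, 4 of 47 passed (8.51%, against 4.69% of all genes), 3 lower and 1 higher. The 3 were ligand genes out of 6 tested, IFNA1 (-2.26 ± 0.29, limma adjusted p 0.000195), IFNG (-1.79 ± 0.30, 0.00167) and IFNK (-0.86 ± 0.22, 0.0364), and the receptor gene IFNAR2 was higher (0.68 ± 0.17, 0.0266). None of the 8 kinases and factors, 15 sensors and adaptors and 12 negative regulators passed in TKO. At gene ends IFNG and IFNAR2 passed (limma adjusted p 0.000706 and 0.0499), while IFNA1 and IFNK were covered in too few libraries to be tested. How these pathway calls held with shortened lists or with libraries left out is not reported here. Away from the ends IFNA1 passed and IFNK did not (limma adjusted p 0.00041 and 0.0597).

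Between the lines 17 of 47 pathway genes passed (36.2%, against 35.6% of all genes), 9 higher and 8 lower in KMS34. The 6 with the smallest p were IFNL1, a lambda interferon, lower by limma (-2.42 ± 0.19, adjusted p 7.03e-08), PTPN6, a phosphatase of the receptor (0.88 ± 0.08), the DNA sensor TLR9 (2.45 ± 0.31), the RNA editor ADAR (-0.56 ± 0.07), the adaptor MYD88 (0.77 ± 0.12) and the factor IRF5 (1.77 ± 0.30). At gene ends PTPN6 and IRF5 did not pass (limma adjusted p 0.508 and 0.56). None of the 6 receptor genes passed in the whole window. At gene ends 1 of the 6 passed, IFNLR1, which was higher in KMS34 (1.40 ± 0.34, limma adjusted p 0.00824).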

How the data were processed

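ATAC-seq peak lists of 22 libraries were used. Per the submitters' processing notes, the tools were MACS3, BWA, fastp, Picard, deepTools and SAMtools, without versions, and the build was hg38. The sources used here give no Tn5 shift, duplicate removal or calling settings. The authors deposited 1 list per library. The deposited -log10 q of a peak (at least 2) was used to rank and filter peaks, and the fold enrichment ratio the authors deposited was only described in tables.

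Covered length was computed over the gene body and 5 kb either side, over 1 kb either side of both gene ends, over the remainder, and over regions merged across libraries (autosomes and X). Gene positions came from RefSeq GRCh38.p14, which gives no exons. Values were log2 of covered bases plus 200 bp (genes) or 100 bp (regions), less the library median over features covered in all libraries. Features covered in at least 2 libraries were fitted with limma 3.58.1 (trend, robust) in R 4.3.3, with 11 group means over 22 libraries and Benjamini-Hochberg adjustment at 0.05 over 16738 genes, 13268 gene ends, 13702 remainders or 69187 regions. Calculations used Python 3.11.15, numpy 2.4.6, pandas 2.3.3 and matplotlib 3.10.9; bedtools 2.31.1 served to check covered length, and the fit was tested on simulated data.

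The 42 genes, the lists and the tests were chosen with earlier results of these data known. Log2 differences are given for called genes, up to the 10 smallest p per comparison and window, up to 6 called pathway genes and up to 10 regions. Alternatives covered the q threshold, list length, scaling, added bases, library minimum, flanks, replicate block, moderation, 1 line alone, peak number as covariate and each library left out. No identical peaks beyond 0.18% were shared by any pair of libraries.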

Additional observations from a re-analysis of the deposited data

Results flagged for a closer look

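In groups of 4 to 10 libraries, 24 of 186 tested sets of values had a library set apart from the rest by Dixon's 95% criterion, where chance gives about 1 in 20. Many sets share libraries, and covered length is 0 where no peak was called. The lowest number of genes covered away from their ends among KMS11 NSD2LDD libraries was 16.

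KMS11 libraries stood apart in covered bp of the window as follows. In DMSO day 10 replicate 2, IFITM1 (352), IFITM2 (198), OAS3 (150) and PARP9 (1237) were highest, both within DMSO and within day 0 and DMSO together. IFIT1 was lowest in DMSO day 10 replicate 1 (973), and TRIM22 in day 0 replicate 2 (239). Under NSD2LDD, day 10 replicate 2 was highest for ISG15 (1184) and OAS3 (220), and day 10 replicate 1 was lowest for IRF9 (375) and PARP9 (983).

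Among KMS34 libraries, HERC6 was lowest in DMSO day 4 replicate 1 (604), within DMSO and within day 0 and DMSO together. DMSO day 10 replicate 1 was highest for IFITM2 (1180) and PARP9 (1442), and day 0 replicate 2 had 0 bp at IRF7. Under NSD2LDD, day 4 replicate 1 was lowest for IFITM1 (311), IRF7 (0) and TRIM22 (636), and day 4 replicate 2 for IFIT1 (961).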

How the results depend on the processing

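The NSD2LDD counts were 0 for both lines and their difference in every window under all alternatives run and with each library left out (0 to 0). Regions were refitted only with -log10 q of 5 or more, with each library left out and, for TKO, against 6 libraries. For TKO, the 3 genes called in the whole window became 1 with -log10 q of 5 or more, 0 with equal list length, 1 without scaling, 1 with 1000 bp added, 1 with the gene body alone, 8 with 50 kb either side and 1 with KMS11 alone. The 0 at gene ends became 1 with peak number as covariate, and the 2 away from the ends 0 with equal list length and 1 with 1000 bp added. Against the 6 day 0 and DMSO libraries, a comparison chosen after seeing the data, the TKO counts were 6 (whole), 4 (ends) and 7 (regions). Leaving out 1 library gave 1 to 4 (whole), 0 to 4 (ends), 1 to 2 (rest) and 2 to 5 (regions). Between the lines, 14 genes called at gene ends became 9 with equal list length and 5 with peak number as covariate. Leaving out 1 library gave 14 to 20, 10 to 18, 6 to 8 and 18 to 26 in the same order. Direction turned with equal list length for IFITM1 (-0.17 whole, -0.18 ends) and IFITM2 (-0.17 whole, -0.13 rest), and with the gene body alone for IRF1 (-0.0017). Regions were also counted as called only if covered over at least 50% of their length. The 23 regions called in all 22 libraries then became 5, and the 3 in all KMS11 and no KMS34 libraries became 0. The 6 in at least 9 of 10 KMS11 t(4;14) libraries and no TKO library became 1. The 2 in all KMS34 and no KMS11 libraries stayed 2, but the OAS2 start region replaced that of TRIM22. Causes of these shifts were not tested, and the same region counts were not made over all merged regions. The replicate block changed no count of genes (3, 0 and 2 for TKO, 18, 14 and 9 between lines, 0 for NSD2LDD). Deviations of same-numbered libraries correlated between -0.1 and 0.27 (median 0.15) in the 5 pairs of groups compared. The median over all 55 pairs of groups was -0.02. The numbers were not taken as pairs, and pairing within a day was not fitted. Depth is unknown, which limits statements on absent peaks.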
